A study of Rattus norvegicus with 10 samples.

Results

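The genes described here encode the proteins of the cytosolic ribosome. They were taken from the gene symbols in the study's tables as all symbols that start with RPL or RPS, without the RPS6K kinases, together with RACK1 and FAU. Each was linked by its Ensembl identifier to the deposited TPM (each gene's share of all transcripts, corrected for transcript length). This gave 68 genes of the 32883 that were listed: 41 RPL genes, 26 RPS genes and RACK1. No identifier named FAU was found in the tables used here. A further 8 identifiers carried 4 symbols that 2 identifiers shared (RPL21, RPS10, RPS19L2 and RPS27A) and were left out. RPS19BP1 starts with RPS but encodes a regulator of the deacetylase SIRT1 that binds RPS19, and it is kept only because the rule takes it.

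The RNA came from the choroid plexus of female Wistar rats, the tissue of the brain ventricles that secretes cerebrospinal fluid, dissected from the lateral and the fourth ventricles. A group of 5 rats had been fed a control diet with 10% of its energy from fat and another 5 a high fat diet (HFD) with 60%, from the same nutrient sources, for 21 weeks up to an age of 27 weeks. Each library held the RNA of 1 rat, and the labels give no other treatment. The rats for sequencing had been picked by body weight, light ones from the control diet and heavy ones from the HFD, so that diet and body weight cannot be told apart. The deposited TPM carry no read numbers, and the depth of each library is therefore unknown. TTR, the transthyretin gene that marks the choroid plexus epithelium, took between 32.2% and 39.7% of all TPM in each rat. AQP1, the water channel of the same cells, had 544 ± 105 (SD, n = 5) rescaled TPM in control rats and 517 ± 34.9 (SD, n = 5) in HFD-fed rats, so that the tissue label held.

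A ribosome has a large subunit, which joins amino acids and is built with the RPL proteins, and a small subunit, which reads the messenger RNA and is built with the RPS proteins. The subunits are assembled in the nucleolus from nearly equal numbers of each protein, and proteins that find no ribosomal RNA are degraded. The stalk proteins RPLP0, RPLP1 and RPLP2 recruit the elongation factors, and RACK1 sits on the small subunit as a docking site for signalling proteins. The messengers of vertebrate ribosomal proteins begin with an uninterrupted run of C and T bases, the 5′ terminal oligopyrimidine tract, through which the mTORC1 kinase sets their translation. These messengers are abundant in most tissues, secretory epithelia such as the choroid plexus included.

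Runs of C and T bases around the annotated gene starts were counted in the reference sequence, which does not show where the messengers of these rats begin. The sequences came from RefSeq on the build GRCr8, matched by symbol, while the deposited values were aligned to Rnor_6.0. Of the 68 genes, 54 had a promoter sequence in the table used. Below are 30 bases, 5′ to 3′ on the strand of the gene, around the longest run of C and T within 30 bases of the start, with that run in capitals. RPS16, RPL13A, RPS2 and RPS21 are shown because they were among the genes with the smallest p for diet, RPS24, RPS27 and RPL5 because they were the only ones with a higher fold change, RPLP1 as a stalk gene, and RPS19BP1 as the gene that encodes no ribosomal protein.
RPS16: ggccccaagCTTTCCTTTTCCggtggcggc
RPL13A: cgccaagaCCTCTTCCTTTCCTaggcggct
RPS2: cagcgCCTCCCTCTTCTTTTTCTTCgggaa
RPS21: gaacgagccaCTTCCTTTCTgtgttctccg
RPS24: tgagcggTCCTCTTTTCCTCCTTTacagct
RPS27: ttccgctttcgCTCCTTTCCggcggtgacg
RPL5: cctccagccaCTCTCTTTCCCacgtcgctt
RPLP1: gcgcatgtgaTCCTTTCCTCagctgccgcc
RPS19BP1: gcgtgtgggcggggCTTggcagcatgtcgg

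On GRCr8 these windows lie at chr1:92770663-92770692 (plus strand) for RPS16, chr1:104748907-104748936 (minus) for RPL13A, chr10:14251824-14251853 (plus) for RPS2, chr3:187724023-187724052 (plus) for RPS21 and chr16:96502-96531 (plus) for RPS24. They lie at chr2:177964590-177964619 (minus) for RPS27, chr14:1995220-1995249 (minus) for RPL5, chr8:71290854-71290883 (minus) for RPLP1 and chr7:113693007-113693036 (minus) for RPS19BP1. The run had 12 bases in RPS16 and 20 in RPS2, and 17 in RPS24 and 9 in RPS27. It was shorter in RPL18 with 7 bases and in RPL41 with 3. Not each of these runs lay at the annotated start, where the first base of the gene is counted as 1 and the base before it as -1. The runs of RPS2 (bases -19 to 1), RPS24 (-8 to 9), RPS21 (-5 to 5), RPS27 (-2 to 7) and RPLP1 (-1 to 9) covered it. Those of RPL13A (-15 to -2) and RPL5 (-14 to -4) lay before it and that of RPS16 (15 to 26) after it, so that these are not shown to be the tract of the messenger. A run of at least 8 bases of C and T within 30 bases of the start was found on the strand of the gene in 40 of the 54 genes (74.1%), against 23.2% of 27457 promoters and 21.8% of 633 other named genes of high level. In 27 of the 40 genes the longest run covered the start, in 8 it lay before it and in 5 after it. On the opposite strand it was found in 9.26% of the 54 genes and in 24.5% of all promoters. The letters CTTTCC, which lay inside a run of at least 8 bases, though not always the longest, in each of the 14 genes that had them on the strand of the gene, were found in 25.9% of the 54 genes and 2.68% of all promoters, and on the opposite strand in 1.85% and 2.68%. The run was equally frequent in RPL genes (75.8% of 33) and RPS genes (75.0% of 20). These matches describe the reference sequence and not a site in use.

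The ribosomal protein genes spanned a wide range of levels, although their proteins are used in nearly equal numbers. TPM were divided by the rat's median ratio to the geometric mean of all 10 rats and are called rescaled TPM. The mean level over the 10 rats ran from 45.6 (RPS19BP1) to 4146 rescaled TPM (RPL41), with a median of 586. RPL41, which encodes a very short and basic peptide of the large subunit, stood first, and its lowest rat (3366) lay above the highest rat of each of the other genes. RPS27, a zinc finger protein of the small subunit, followed with a mean of 2218, then RPLP1 with 2025 and RPL37, also a zinc finger protein, with 1856. The rats of these 3 genes overlapped, from 1968 to 2514 in RPS27, 1671 to 2809 in RPLP1 and 1626 to 2310 in RPL37, so that their order did not exceed the spread. RPS16 with a mean of 1601 and RPL13A with 1234 came next. The lowest levels of genes for ribosomal proteins were those of RPL7 (92.3), RPL28 (126) and RPL15 (128), and the highest rat of RPL7 (97.6) overlapped the lowest of RPL28 (95.1). RPS19BP1 lay below each of the other genes, at 40.2 to 55.1 in the 10 rats. Ribosomal protein genes have many near-identical copies in the genome, among which RSEM divides the reads, so that a level of 1 identifier is uncertain where a copy is also listed. Of the symbols left out for this reason, RPS19L2 had 1138 rescaled TPM in control rat 1 and 446 to 555 across the other rats at 1 identifier, and 784 and 704 to 1024 at the other.

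**Figure D1:**
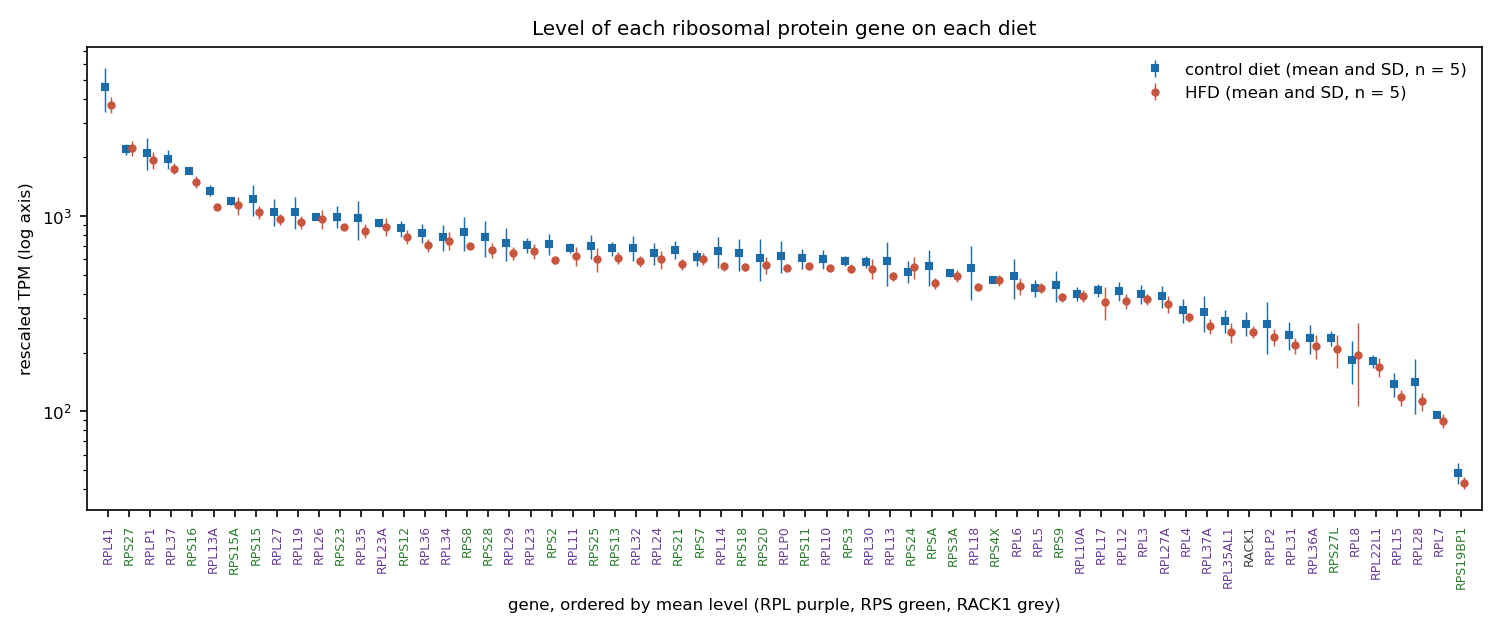
Mean and SD (n = 5 rats) of the rescaled TPM of 65 of the 68 genes on the control diet (squares) and the HFD (circles), on a log axis, with the genes ordered by their mean level. Levels fall from RPL41 at 4146 to RPS19BP1 at 45.6, and for most genes the HFD mean lies slightly below the control mean.

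Together the 68 genes took a share of all TPM that overlapped between the diets. The share in the deposited TPM, which needs no rescaling, was 4.52%, 4.84%, 4.88%, 5.09% and 4.73% in control rats 1 to 5 and 4.84%, 4.59%, 4.36%, 4.81% and 4.52% in HFD rats 1 to 5. The means were 4.81% ± 0.21 (SD, n = 5) and 4.62% ± 0.20 (SD, n = 5), and the groups overlapped. TTR and the transcripts of mitochondrial DNA varied between the rats and lower the share of everything else when they are high. Without them the share was 9.32%, 8.16%, 8.37%, 8.53% and 8.08% in the control rats and 8.24%, 8.40%, 8.38%, 8.21% and 7.62% in the HFD-fed rats. Here control rat 1 was highest and HFD rat 5 lowest, and the others of both groups lay between 8.08% and 8.53%.

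The RPL and RPS sums kept a steady ratio in 9 rats and not in control rat 1. The summed TPM of the 41 RPL genes were 1.75 times those of the 26 RPS genes in control rat 1, and 1.496 to 1.512 times in the other controls. They were 1.49 to 1.54 times in the HFD-fed rats. RPL41 alone made up 11.0% of the summed TPM of the 68 genes in control rat 1 and 7.94% to 8.96% elsewhere, but without RPL41 the ratio in control rat 1 (1.44) also lay above that of the others (1.28 to 1.32).

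**Figure D2:**
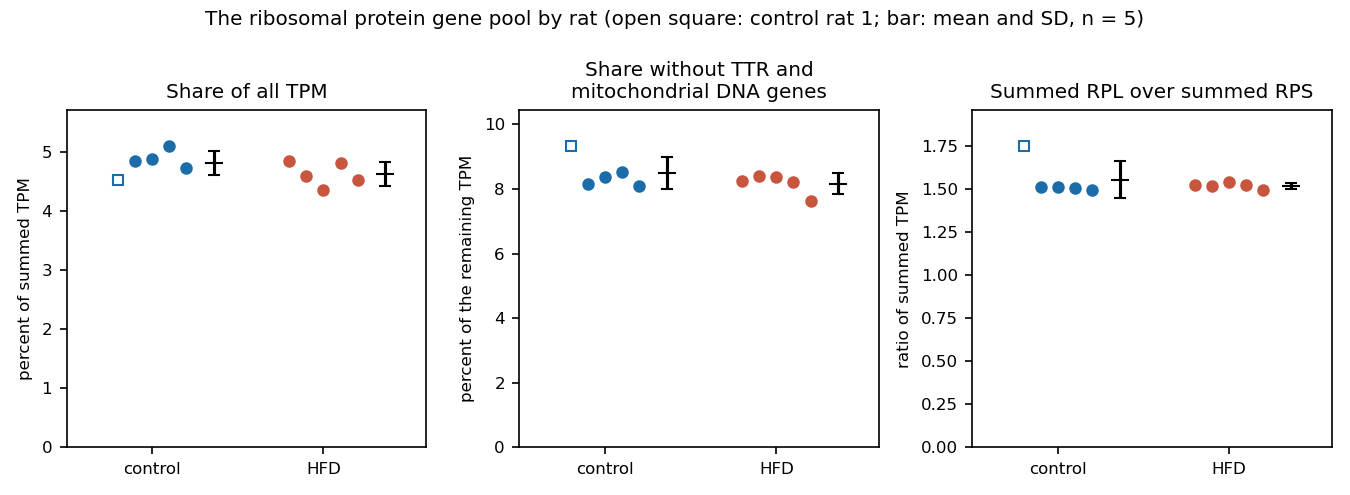
Share of the 68 ribosomal protein genes in all deposited TPM (left), in TPM without TTR and the mitochondrial DNA genes (middle) and ratio of summed RPL to summed RPS TPM (right), 1 point per rat, with mean and SD (n = 5). The diets overlap in the 3 panels, and control rat 1 (open square) has the highest ratio, 1.75, and the highest share in the middle panel, 9.32%.

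Control rat 1 stood apart in the transcriptome as a whole, so the main results on diet are given with and without it. In 1842 genes it differed more than 2-fold from the other rats' median, and in each other rat this held for 171 to 235 genes. Its scaling factor was 0.747 and those of the others 0.944 to 1.13. Its mean effective transcript length was 789 bases, against 874 to 968. Among the 68 genes it differed more than 1.5-fold from that median in 12, and each other rat in at most 1. On the rescaled scale it was above the other 4 controls in 54 of the 68 genes (79.4%) and below them in 6, against 39.0% above and 38.6% below over all genes tested and 57.0% above among the genes with a mean of at least 100. The RPL genes had a median deviation of 0.41 from the other controls on the log2 scale, with 35 of 41 above them, and the RPS genes 0.25, with 18 of 26 above. The deviation ran from 0.86 in RPL18 to -0.43 in RPS24. RPL18, a protein of the large subunit, had 837 rescaled TPM in control rat 1 and 453 to 487 in the other controls. RPS24, a small subunit gene mutated in Diamond-Blackfan anaemia, had 403 there and 533 to 575 in the other controls.

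Among the HFD-fed rats, rat 5 had the lowest rescaled TPM in 60 of the 68 genes and rat 2 the highest in 51. Over the 939 genes with a mean of at least 100, HFD rat 5 was lowest in 41.9% and HFD rat 2 highest in 62.0%. This order depended on the scaling. In the deposited TPM the share of the 68 genes was lowest in HFD rat 3 (4.36%) and highest in HFD rat 1 (4.84%). It was 4.52% in HFD rat 5 and 4.59% in HFD rat 2. HFD rat 5 also had the lowest summed rescaled TPM of the 4 haemoglobin genes, 3102 against 4184 to 6396 in the other HFD-fed rats, and of the 10 epithelial markers, most of it TTR, 296443 against 307470 to 413822. Its scaling factor (1.13) and mean effective transcript length (968 bases) were the highest of the 10 rats. The part of any of these in the low ribosomal protein values of HFD rat 5 was not tested.

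**Figure D3:**
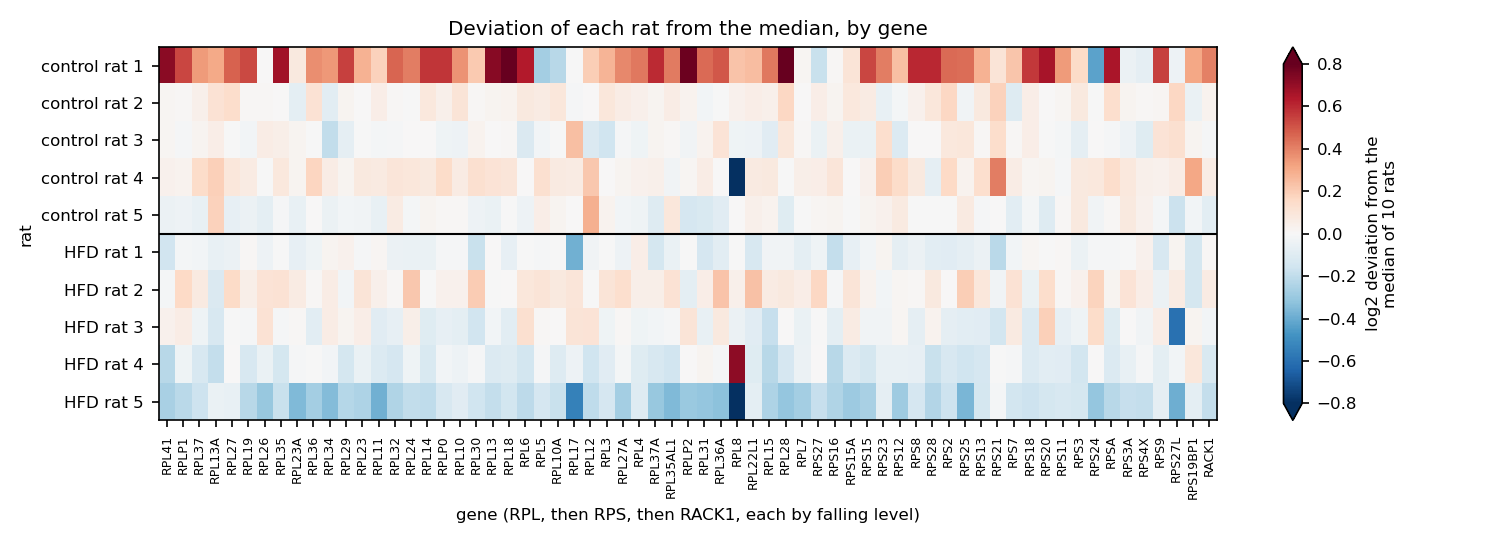
Deviation of the log2 rescaled TPM of each rat (rows, controls above the line) from the median of the 10 rats, for 65 of the 68 genes (columns), red above and blue below. Over all 68, control rat 1 is above the other controls in 54 and HFD rat 5 below the other HFD-fed rats in 60, while RPL8 is low in control rat 4 and HFD rat 5 and high in HFD rat 4.

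The comparison of the diets asked whether ribosomal protein transcripts differed in the choroid plexus of HFD-fed rats. Most were slightly lower on the HFD: 65 of the 68 had a fold change below 0 on the log2 scale and 3 above. A fold change below 0 was also found in 47.3% of all genes tested and in 74.9% of the 939 genes with a mean of at least 100 rescaled TPM. The median was -0.16, with -0.16 over the RPL genes and -0.17 over the RPS genes, against 0.013 over the 12198 genes tested. The genes were tested with limma on log2 of the rescaled TPM plus 0.1, in which all 68 passed the minimum mean of 1 rescaled TPM. None had a Benjamini-Hochberg adjusted p under 0.05, nor had any gene of the 12198 (0.00%), and the smallest adjusted p by limma was 0.542. At an unadjusted p under 0.05 by limma, 11 of the 68 genes were called, all of them lower, 5 RPL and 6 RPS genes. RPL13A, RPL36, RPL14 and RPL32 were among them, and RPS2, RPS21, RPS16 and RPSA. Leaving out 1 rat at a time changed this number to between 5, without HFD rat 5, and 18, without HFD rat 2. The 11 genes are 16.2% of the 68, where 4.83% of all genes tested were lower and 3.76% higher by the same rule. Abundant genes in general were lower on this scale, however. Of the 939 genes with a mean of at least 100, 16.4% were lower by the same rule, and their median was -0.10. The share of ribosomal protein genes called lower therefore lay at the background of genes with a mean of at least 100. That set holds most of the 68 genes and has a lower median level, 211 rescaled TPM against 586. In bulk tissue, fewer cells of a type and less RNA per cell cannot be told apart.

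The size of the difference rested in large part on control rat 1. Without it the median fold change of the 68 genes was -0.088, over RPL genes -0.074 and over RPS genes -0.10, and 64 of the 68 were lower. Relative to the median of the genes with a mean of at least 100, the median of the 68 genes moved from -0.061 with all rats to -0.020 without it. The number called at an unadjusted p under 0.05 was again 11, all lower, of which 9 were shared. RPL36 was among the 2 called only with all rats, and RPL18 and RPS18 were called only without control rat 1. In these 9 rats 6.26% of all genes tested and 19.9% of those with a mean of at least 100 were called lower.

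The split also moved with the scaling between rats. With TPM as deposited, 51 of the 68 were lower and 17 higher, with a median of -0.061, while the median of all genes tested rose to 0.11. Scaling divides each rat by a factor that all its genes share, so the distance between both medians is nearly fixed by construction. It was -0.18 with either scaling. By an unadjusted p under 0.05, 5 genes were lower (7.35%), RPL14, RPL41, RPS2 and RPSA among them. On this scale 1.26% of all genes were lower and 3.84% higher, and 5.86% of the genes with a mean of at least 100 were lower. When control rat 1 was left out of the deposited TPM the split was 63 lower and 5 higher, with a median of -0.077. Then 10 of the 68 genes were called, all lower (14.7%), against 3.06% of all genes and 15.4% of those with a mean of at least 100. With TPM without TTR and the mitochondrial DNA genes, 50 were lower and 18 higher, with a median of -0.059. Leaving out control rat 1 on that scale gave 41 lower and 27 higher, with a median of -0.017. Called were 4 genes with all rats and 6 without it, all lower. By this rule 1.39% and 1.89% of all genes and 6.28% and 8.95% of those with a mean of at least 100 were lower. Scaling each rat to its ribosomal protein genes centres them near 0 by construction, which sets the split of 36 lower and 32 higher. Then RPS2 was lower and RPS7, a small subunit gene chosen for naming after its value was seen, was higher, against 0.607% of all genes lower and 10.3% higher.

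**Figure D4:**
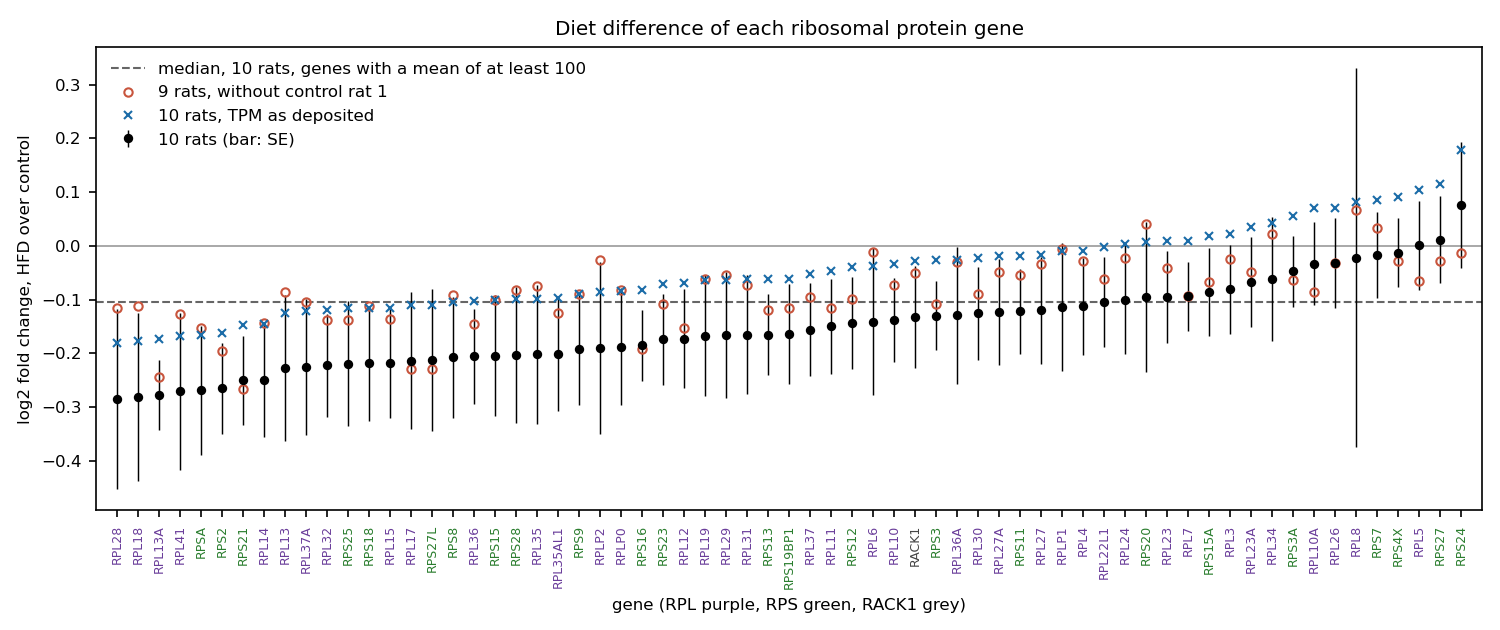
Log2 fold change, HFD over control, of 65 of the 68 genes with all 10 rats (filled circles, bars are standard errors), without control rat 1 (open circles) and with TPM as deposited (crosses), and the median of the genes with a mean of at least 100 (dashed line at -0.10). With 10 rats only RPS24, RPS27 and RPL5 lie above 0, and without control rat 1 most open circles lie closer to 0.

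In 6 of the 68 genes each HFD-fed rat lay below each control rat, and in none each HFD-fed rat above. RPL13A, RPL14, RPS16 and RPS21 were among them. Over all genes tested 2.02% were separated in this direction, and 2.73% without control rat 1, where 6 of the 68 genes were separated. Among the genes with a mean of at least 100 it was 8.73%, and 11.5% without control rat 1, so that 6 of 68 lay near that background with all rats and below it without control rat 1. For each of the 6 the exact two-sided permutation p was 0.00794, the smallest that 5 rats against 5 can give.

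RPL13A (ENSRNOG00000062298), a large subunit protein that also takes part in silencing inflammatory messengers, had the smallest p of the 68 genes. Its rescaled TPM were 1482, 1300, 1245, 1369 and 1365 in control rats 1 to 5 and 1153, 1109, 1097, 1055 and 1160 in HFD rats 1 to 5. The controls were all above the HFD-fed rats. The log2 fold change was -0.28 (standard error 0.065, exact permutation p = 0.00794, adjusted p = 0.542 by limma) and -0.24 without control rat 1. With TPM as deposited it was -0.17, and RPL13A was not called.

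RPS16 (ENSRNOG00000019578), a small subunit protein near the decoding site, was the only one of the 68 in the study's list of differentially expressed genes. That list was chosen on these rats and is not independent evidence. Its rescaled TPM were 1670, 1685, 1706, 1771 and 1682 in the control rats and 1454, 1649, 1570, 1421 and 1407 in the HFD-fed rats. The controls were close together, control rat 1 among them, and HFD rat 2 came near to the lowest control. The log2 fold change was -0.19 (standard error 0.065, exact permutation p = 0.00794, adjusted p = 0.542 by limma), and -0.19 without control rat 1. With TPM as deposited it was -0.082, and RPS16 was not called.

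RPS21 (ENSRNOG00000060449) had 642, 679, 659, 793 and 599 rescaled TPM in the control rats and 514, 587, 540, 596 and 590 in the HFD-fed rats. Its groups were separated by a narrow gap between control rat 5 and HFD rat 4, and control rat 4 was the highest. RPS2 (ENSRNOG00000014179), which lies at the entry of the messenger RNA channel, had 865, 710, 670, 707 and 632 in the control rats and 593, 633, 602, 577 and 563 in the HFD-fed rats. HFD rat 2 just exceeded control rat 5, so these groups overlapped. The log2 fold changes were -0.25 (exact permutation p = 0.00794) in RPS21 and -0.26 (exact permutation p = 0.0159) in RPS2. They were -0.27 and -0.20 without control rat 1. With TPM as deposited they were -0.15 and -0.16, and only RPS2 was still called of this pair.

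**Figure D5:**
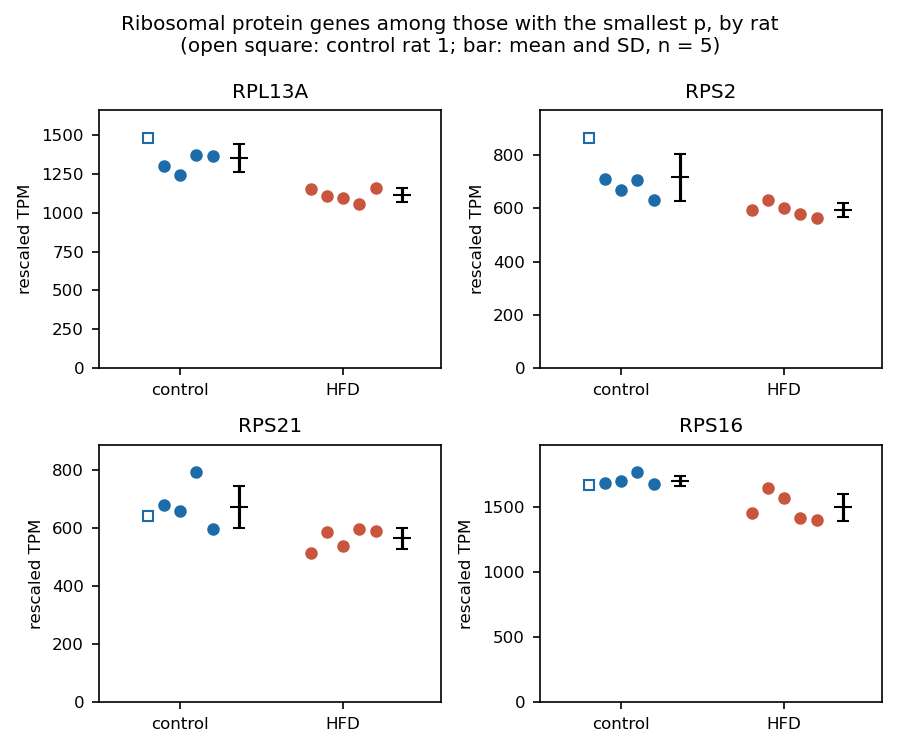
Rescaled TPM in each rat, with mean and SD (n = 5), of RPL13A, RPS2, RPS21 and RPS16, which were among the 6 genes with the smallest p in the diet comparison. In RPL13A, RPS21 and RPS16 each HFD-fed rat lies below each control rat, and in RPS2 1 HFD-fed rat (633) exceeds the lowest control (632).

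Of the 4 genes with the lowest fold changes, RPL13A kept most of its difference without control rat 1, and RPL28, RPL18 and RPL41 moved closer to 0. RPL28, a large subunit gene, had the lowest fold change, -0.28, with 218 rescaled TPM in control rat 1, 110 to 132 in the other controls and 95.1 to 125 in the HFD-fed rats. The groups overlapped, and without control rat 1 the fold change was -0.12 (exact permutation p = 0.111 with all rats). RPL18 had -0.28 with all rats (exact permutation p = 0.0159) and -0.11 without control rat 1. RPL41 had 6652, 4090, 4073, 4132 and 3911 in the control rats and 3630, 4001, 4137, 3469 and 3366 in the HFD-fed rats. Its fold change was -0.27 (exact permutation p = 0.0714) and -0.13 without control rat 1, and HFD rat 3 exceeded 4 of the 5 controls.

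Only RPS24, RPS27 and RPL5 had a fold change above 0, and none of them passed the test. RPS24 had 403, 543, 545, 575 and 533 rescaled TPM in the control rats and 539, 616, 601, 544 and 439 in the HFD-fed rats. Its groups overlapped throughout, and the log2 fold change of 0.076 (exact permutation p = 0.516) became -0.013 without control rat 1. RPS27 had 0.011 and -0.027 without control rat 1. RPL5, which carries the 5S ribosomal RNA into the large subunit and holds the p53 inhibitor MDM2 when it is free, had 0.00091 and -0.065 without control rat 1. RPS4X, the X-linked small subunit gene, was near 0 with -0.013 (-0.027 without control rat 1), from 473 ± 21.1 (SD, n = 5) in control rats to 470 ± 30.3 (SD, n = 5) in HFD-fed rats.

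The stalk genes did not pass the test. RPLP0 had 627 ± 117 (SD, n = 5) rescaled TPM in control rats and 545 ± 23.5 (SD, n = 5) in HFD-fed rats, RPLP1 had 2113 ± 390 and 1937 ± 183, and RPLP2 had 280 ± 83.3 and 240 ± 24.1. In the 3 genes control rat 1 was far above the other controls in rescaled TPM. It had 831 against 546 to 619 in RPLP0, 2809 against 1890 to 1981 in RPLP1 and 428 against 226 to 253 in RPLP2. Its scaling factor of 0.747, the lowest of all rats, raises its rescaled values. The log2 fold changes of RPLP0, RPLP1 and RPLP2 were -0.19, -0.11 and -0.19, and -0.081, -0.0065 and -0.027 without control rat 1. With TPM as deposited and all rats they were -0.084, -0.010 and -0.086. RPL37, next to RPLP1 by level, had -0.16 (exact permutation p = 0.0873) and -0.094 without control rat 1.

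The scaffold and the paralog forms did not pass it either. RACK1 had 281 ± 39.5 (SD, n = 5) rescaled TPM in control rats and 255 ± 18.1 (SD, n = 5) in HFD-fed rats, which is -0.13 on the log2 scale (exact permutation p = 0.206) and -0.051 without control rat 1. RPS27L, the p53-induced paralog of RPS27, had a mean level of 222 where RPS27 had 2218, and a fold change of -0.21 (exact permutation p = 0.214) where RPS27 had 0.011. Its HFD-fed rats ran from 153 in rat 3 to 243 in rat 2, the controls from 206 to 260. RPL22L1, the paralog of RPL22, had 181 ± 13.5 in control rats and 169 ± 18.7 in HFD-fed rats, with HFD rat 2 (202) above the other HFD-fed rats (157 to 163). RPL35AL1, a copy of the large subunit gene RPL35A, had a fold change of -0.20 (exact permutation p = 0.111). RPS19BP1 had 48.3 ± 6.20 (SD, n = 5) in control rats and 42.9 ± 3.10 (SD, n = 5) in HFD-fed rats (exact permutation p = 0.143), which is -0.16 on the log2 scale. Without control rat 1 the fold changes were -0.23 in RPS27L, -0.062 in RPL22L1, -0.12 in RPL35AL1 and -0.12 in RPS19BP1.

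Ribosomal protein genes varied less between rats of a diet than most genes, and about as much as genes with a mean of at least 100. The median SD within the diets on the log2 scale was 0.156, against 0.215 over all genes tested and 0.160 over the 939 genes with a mean of at least 100. Without control rat 1 these were 0.0985, 0.143 and 0.101. An SD under 0.2 was found in 77.9% of the 68 genes and in 45.4% of all genes tested. The steadiest were RPS16 (0.0744), RPL13A (0.0776) and RPS3 (0.0799), a small subunit protein that also acts in DNA repair. RPS3 had 588 ± 32.7 (SD, n = 5) in control rats and 538 ± 29.1 in HFD-fed rats, a fold change of -0.13 (exact permutation p = 0.0317) and -0.11 without control rat 1.

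RPL8, a protein that reaches the peptidyl transferase centre, was the exception with an SD of 0.641. It had 228, 199, 190, 106 and 195 rescaled TPM in the control rats and 195, 200, 188, 319 and 70.5 in the HFD-fed rats. Of these rats 7 lay between 188 and 228, and control rat 4, HFD rat 4 and HFD rat 5 apart from them in either direction. Near-identical copies of RPL8 among which reads could be divided were not analysed here. The fold change of RPL8 was -0.022 with a standard error of 0.35, and 0.067 without control rat 1. RPL7 and RPL15, low by level, had -0.094 (exact permutation p = 0.0556) and -0.22 (exact permutation p = 0.0635). These were -0.094 and -0.14 without control rat 1.

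Other genes of the translation machinery, taken from fixed lists, are set beside these, where 4.83% of all genes tested were lower by the same rule. Of 23 initiation factors, which bring the messenger RNA and the small subunit together, 2 were lower at an unadjusted p under 0.05 by limma (EIF3L at -0.22 and EIF2B2 at -0.19) and 0 higher, with a median fold change of -0.047. Of 4 elongation factors 0 were called, and EEF1A1, which brings the transfer RNAs, had 0.099 (exact permutation p = 0.175). Of 9 genes for ribosome assembly 1 was lower, NOP10 of the RNA-modifying H/ACA particles, at -0.24, while the nucleolar genes NPM1 and NCL had 0.12 and 0.056 and were not called. Of 8 ribosome-bound chaperones and other messengers with a pyrimidine tract, 2 were lower. TPT1, a growth-related messenger, was among them with -0.19 (exact permutation p = 0.0397). Without control rat 1 the number lower in this list was 1, and TPT1 with -0.16 was not called. The numbers lower in the lists of initiation factors and assembly genes stayed at 2 and 1 without it, with -0.16 in EIF3L, -0.17 in EIF2B2 and -0.15 in NOP10, and EEF1A1 had 0.079. With TPM as deposited, 0 of the 23 initiation factors were called, 14 had a fold change above 0 and the median was 0.056. The assembly and chaperone lists then had 1 lower each, where 1.26% of all genes tested were lower. With TPM without TTR and the mitochondrial DNA genes, 0 genes of these lists were called lower. Higher were 2 initiation factors, 1 elongation factor, 2 assembly genes and 1 gene of the chaperone list. Of all 12198 genes tested, 1157 were higher on that scale.

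The genes for the proteins of mitochondrial ribosomes, which are encoded in the nucleus and translate the messengers of mitochondrial DNA, are set beside them last. Of 40, 11 had an unadjusted p under 0.05 by limma, all lower, 38 had a fold change below 0, and the median was -0.18. Over all genes tested 4.83% were lower by this rule, and 16.4% of those with a mean of at least 100. Examples were MRPL48 (-0.25, exact permutation p = 0.00794), MRPS28 (-0.29, exact permutation p = 0.00794) and MRPL54 (-0.37, exact permutation p = 0.0159). Without control rat 1, 15 of 40 were lower, against 6.26% of all genes tested and 19.9% of those with a mean of at least 100, and the median was -0.12. The median level of the 40 genes, 79.6 rescaled TPM, lay below that limit of 100. MRPL48, MRPS28 and MRPL54 then had -0.21, -0.21 and -0.23. With TPM as deposited and all rats, 3 of 40 were called, all lower, 31 had a fold change below 0, and the median was -0.075. With TPM without TTR and the mitochondrial DNA genes these were 6, 31 and -0.072. On these scales 1.26% and 1.39% of all genes tested were lower, and 5.86% and 6.28% of those with a mean of at least 100. Without control rat 1, 12 and 9 of 40 were lower on them. The shares were then 3.06% and 1.89% of all genes tested, and 15.4% and 8.95% of those with a mean of at least 100. A difference between the mitochondrial and the cytosolic ribosomal protein genes was not tested.

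Markers of other cells in the tissue were measured in the same rats. The 4 haemoglobin genes summed to 7803, 6908, 3658, 6274 and 3808 rescaled TPM in the control rats and 4754, 4184, 4561, 6396 and 3102 in the HFD-fed rats, HBA-A1 being the most abundant, and 0 of 4 passed an unadjusted p under 0.05. PLVAP, a marker of fenestrated endothelium, was at 97.5 in control rat 1, with 51.1 to 67.2 across the remaining rats. The 3 macrophage genes summed to 477 in control rat 1, the remaining rats having 524 to 721, with LYZ2 the most abundant. The 4 stromal genes summed to 643 to 854 in the 10 rats, with IGFBP7 the most abundant. The mural genes RGS5 and MYL9 summed to 178 to 194 in the control rats and 196 to 245 in the HFD-fed rats. The sums did not overlap, but 0 of the 2 genes was separated on its own, where 1.40% of all genes tested had each HFD-fed rat above each control, and 0 of 2 passed an unadjusted p under 0.05 by limma. In control rat 1 RGS5 was low (42.8, other controls 106 to 110) and MYL9 high (137, other controls 71.4 to 86.2). Of the 10 epithelial markers, led by TTR, KL and HTR2C were higher on the HFD at an unadjusted p under 0.05 by limma, with fold changes of 0.27 and 0.20, and 0.16 and 0.19 without control rat 1, where both were still called. These are 2 of 10, against 3.76% of all genes tested called higher with all rats and 5.50% without control rat 1. Of the 10 markers 7 had a fold change above 0 and 3 below, FOLR1 the lowest with -0.16. Other markers were called only without control rat 1. OGN, a stromal proteoglycan, had 10.6 rescaled TPM in control rat 1, 114 to 140 in the other controls and 31.2 to 79.7 in the HFD-fed rats. Its fold change was -0.72 with all rats, not called, and -1.44 without control rat 1, called lower. MYL9 went from 0.16 to 0.34, called higher, and AQP1 from -0.049 to -0.18, called lower. None of the markers listed here was at 0, and their part in the ribosomal protein values was not tested.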

How the data were processed

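The authors aligned paired reads to Rnor_6.0 with STAR (2.7.2a in the submitters' processing notes) and quantified genes with RSEM 1.3.3. They deposited TPM and FPKM per gene for each of the 10 rats. Their own test used DESeq2 on counts, which were not used here. The deposited FPKM are a constant multiple of TPM within a rat and gave only its mean effective length. The limma fit was run on log2(rescaled TPM + 0.1): TPM were divided by the rat's median ratio to the geometric mean of all rats over 12037 genes, genes with a mean of at least 1 were kept, diet was the only term, and p-values were adjusted over 12198 genes (limma 3.58.1, R 4.3.3, python 3.11.15). The fit was tested on simulated data. Single genes also had an exact two-sided permutation test over 252 assignments. Gene symbols came from the study's tables, 1 of which is a shortened copy holding its most abundant genes, so that genes of low level had no name. Members, lists and tests were chosen with earlier results of these data known. Named genes were RPS16, the 4 highest and lowest by level, the 4 largest changes each way, the 6 smallest p, the 3 largest deviations of 1 rat, the 3 smallest spreads, and the stalk, paralog, RACK1 and RPS19BP1 genes. RPS4X was the fourth by signed change, though below 0. Some genes of this rule and of the lists are in all fits and counts but are not reported by name. The labels give no sequencing batch.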

Additional observations from a re-analysis of the deposited data

Results flagged for a closer look

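A value was singled out where, among the 5 rats of a diet, the gap to its nearest neighbour was over 0.71 of the whole range. Of 54 groups examined 12 had such a value. Chance gives about 1 in 20 among independent groups, but some of these genes were named for a large deviation of 1 rat or a large fold change, and genes move together within a rat, so that no number to be had by chance is given here. Control rat 1 held 11 of the 12. It was high in RPL41 (6652, other controls 3911 to 4132 rescaled TPM), RPLP1 (2809), RPL18 (837), RPLP0 (831), RPLP2 (428), RPL35AL1 (358), RACK1 (350) and RPL28 (218), and low in RPS24 (403). Its ratio of summed RPL to summed RPS TPM was 1.75, against 1.496 to 1.512 in the other controls. Its median deviation over the ribosomal protein genes was 0.36 on the log2 scale of rescaled TPM. The scaling factor of control rat 1, 0.747, raises its rescaled values, so the flags of single genes and this deviation depend on the scaling. With TPM as deposited this deviation was -0.061, against -0.41 over all genes tested. The last of the 12 was HFD rat 2, with 202 rescaled TPM of RPL22L1.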

How the results depend on the processing

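The number of ribosomal protein genes at an unadjusted p under 0.05 by limma, 11 in the reported fit, was 5 with TPM as deposited, 4 with TPM without TTR and the mitochondrial DNA genes, 2 scaled to the ribosomal protein genes, 6 with no mean-variance trend and 18 with array weights. Leaving out 1 rat gave 5 to 18, with 5 without HFD rat 5, 6 without HFD rat 3, 7 without control rat 4, HFD rat 1 or HFD rat 4, and 18 without HFD rat 2. Leaving out control rat 1 together with another scaling was added after the data were seen. It gave 10 genes with TPM as deposited, 6 with TPM without TTR and the mitochondrial DNA genes and 6 scaled to the ribosomal protein genes. Other pseudocounts, filters, upper-quartile scaling, a robust variance and changes of membership gave 8 to 11. The share of genes called lower in general also differed between settings. With array weights 26.5% of the 68 genes, 26.1% of the genes with a mean of at least 100 and 8.20% of all genes tested were lower, with no mean-variance trend 8.82%, 11.9% and 4.02%, and with TPM without TTR and the mitochondrial DNA genes 5.88%, 6.28% and 1.39%. They were 26.5%, 20.98% and 4.65% without HFD rat 2, and 7.35%, 10.4% and 3.71% without HFD rat 5. No setting gave 1 of the 68 genes with an adjusted p under 0.05, and with array weights 3 of the 12198 genes tested had one (smallest 0.0306). Same-numbered rats did not deviate together (correlations from -0.038 to 0.12), so they share only a number, and the fit with the replicate number as a block gave 13 genes, 0 by adjusted p.

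The median fold change of the ribosomal protein genes ran from -0.19 to -0.088 without 1 rat, of the RPL genes from -0.19 to -0.074 and of the RPS genes from -0.19 to -0.10. Scaled to the ribosomal protein genes, which sets their mean to 0 by construction, they were -0.012, -0.0023 and -0.016, and 0.0017, 0.016 and -0.015 without control rat 1. With TPM without TTR and the mitochondrial DNA genes and without control rat 1 they were -0.017, -0.0031 and -0.034. The RPS median was -0.066 with TPM as deposited and -0.063 without TTR and the mitochondrial DNA genes. The share of all TPM, HFD minus control, ran from -0.26 to -0.12 percentage points without 1 rat.

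Fold changes of named genes that changed sign were of genes that did not pass the test in the reported fit. With TPM as deposited, RPL7 had 0.0095, RPL8 0.082 and RPS4X 0.091. RPS4X had 0.0033 with upper-quartile scaling. Scaled to the ribosomal protein genes, RACK1 had 0.022, RPL22L1 0.049, RPL7 0.059, RPL8 0.13, RPLP1 0.040, RPS3 0.024 and RPS4X 0.14. Without TTR and the mitochondrial DNA genes, RPL22L1 had 0.0018, RPL7 0.013, RPL8 0.085 and RPS4X 0.094. With array weights, RPL5 had -0.079, RPL8 0.23, RPS24 -0.019 and RPS27 -0.039. Without control rat 1 and with TPM as deposited, RPL5 had -0.054, RPL8 0.078, RPLP1 0.0044, RPS24 -0.0019 and RPS27 -0.016. Without TTR, the mitochondrial DNA genes and control rat 1, RACK1 had 0.020, RPL22L1 0.0087, RPL8 0.14, RPLP1 0.064, RPLP2 0.044 and RPS4X 0.043. Scaled to the ribosomal protein genes and without control rat 1, RACK1 had 0.039, RPL22L1 0.028, RPL8 0.16, RPLP0 0.0084, RPLP1 0.083, RPLP2 0.063 and RPS4X 0.062. Without 1 rat, RPL5 ran from -0.065 to 0.035, RPL8 from -0.24 to 0.31, RPS24 from -0.013 to 0.15, RPS27 from -0.033 to 0.055 and RPS4X from -0.033 to 0.028. Another scaling shifts the fold changes of all genes of such level by nearly the same amount, so that small ones can change sign. For the array weights the cause of the changes was not tested. The number of reads behind a value is unknown, and identifiers of near-identical gene copies limit what each level means.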
